A study of Mus musculus with 4 samples.

Results

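Hlf, Procr, Mecom, Cd34, Adgrg1, Adgrl4, Angpt1, Myct1 and Sox4 are 9 genes known from hematopoietic stem cells and the earliest progenitors, chosen by name among the 18695 genes counted in single bone marrow cells of 2 mice, 1 of each genotype by the deposited cell table. Both carried floxed Tet2 alleles (Tet2 fl/fl), the *Tet2* KO with Mx1-Cre and the control, from Cre negative littermates, without it. By the study's methods the mice were 8 to 12 weeks old, and both genotypes received pI:pC at 12.5 μg/g in each of 4 doses. This double-stranded RNA mimic induces interferon and thereby the Mx1 promoter that drives Cre. The controls therefore shared the interferon stimulus but not the recombinase, and Mx1-Cre is also active in cells outside the blood lineage. Each mouse gave 2 libraries, one of Lin- progenitors with CD11b+ cells (the Lin-/CD11b+ sort) and one of GMPs, granulocyte-monocyte progenitors sorted as Lin- cKit+ Sca1- CD34+ CD16/32+ cells. With 1 mouse per genotype and 1 library per sort and genotype no difference has a replicate check, and the genotype cannot be told apart from the animal. No p-value is therefore given, and the 95% intervals in parentheses cover counting error only.

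Hematopoietic stem cells give rise to all blood lineages, and their transcripts fade stepwise as daughter cells commit to lymphoid, erythroid or myeloid fates. Transcription factors such as Hlf and Mecom maintain the stem cell state, surface receptors such as Procr and Adgrg1 are used to purify stem cells, and Cd34 and Sox4 remain expressed in progenitors that have left the stem cell pool. GMPs lie further down and split into a monocytic branch, in which Ly86 is expressed, and a neutrophilic branch that depends on the transcription factor Cebpe.

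The libraries held 1258 cells (GMP control), 2719 cells (GMP *Tet2* KO), 1924 cells (Lin-/CD11b+ control) and 3068 cells (Lin-/CD11b+ *Tet2* KO), with 22681380 to 42561110 UMIs (unique molecular identifiers, each standing for one captured RNA molecule) per library. Median depth ranged from 10417 UMIs per cell in the Lin-/CD11b+ *Tet2* KO library to 18713 in the GMP control library, so shares of cells with a UMI are given after thinning every cell to 5000 UMIs, and the shares without thinning are given beside them. Pairs of libraries shared 4 to 8 cell barcodes. Tet2 itself was at 13.02 CPM in the GMP control and 17.0 CPM in the GMP *Tet2* KO library, and at 13.4 CPM and 20.7 CPM in the Lin-/CD11b+ pair, where CPM are UMIs per 1000000 UMIs of a library, not scaled for transcript length. UMIs read the 3′ end of a transcript and not the floxed part, so these values do not check the genotype labels. The study's sample table lists the cell numbers of the Lin-/CD11b+ control and GMP *Tet2* KO libraries the other way round from the cell table used here; of 427 lymphoid-like cells, 0 carried a GMP label.

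Hlf (chr11:90336536-90390895, minus strand, in GRCm38) encodes a PAR bZIP transcription factor of stem cells. It was at 3.93 CPM (3.16 to 4.83) in GMP control and 1.86 CPM (1.47 to 2.31) in GMP *Tet2* KO. Its levels in the Lin-/CD11b+ sort were 6.17 CPM (5.19 to 7.28) in control and 8.49 CPM (7.54 to 9.53) in *Tet2* KO. The order from low to high was thus GMP *Tet2* KO, GMP control, Lin-/CD11b+ control and Lin-/CD11b+ *Tet2* KO, and neighbouring intervals did not overlap. At equal depth a Hlf UMI was found in 1.67% (1.04 to 2.54) of GMP control cells, 0.883% (0.566 to 1.31) of GMP *Tet2* KO cells, 2.49% (1.85 to 3.29) of Lin-/CD11b+ control cells and 4.17% (3.49 to 4.94) of Lin-/CD11b+ *Tet2* KO cells. Neutrophil-like cells, which should lack the gene, gave a Hlf UMI in 3 of 307 cells (0.977%) at a median depth of 8904 UMIs. The GMP *Tet2* KO share is no higher than this background. With 3 cells the background is itself uncertain, and whether the other libraries stand above it was not tested. Without thinning the 4 shares were 6.04%, 2.72%, 4.78% and 6.49%, and the GMP control library, whose cells were the deepest, then came second.

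Mecom (chr3:29951296-30548008, minus strand) encodes a zinc finger transcription factor needed for stem cell self-renewal, and it showed the same order of libraries. It stood at 1.53 CPM (1.07 to 2.13) in GMP control and 0.611 CPM (0.399 to 0.895) in GMP *Tet2* KO, from 35 and 26 UMIs. In the other sort the control had 3.48 CPM (2.76 to 4.34) and the *Tet2* KO 4.50 CPM (3.81 to 5.27). The Lin-/CD11b+ intervals overlapped and the GMP intervals did not. Shares of cells at equal depth were 0.795%, 0.294%, 1.14% and 2.31% in the order used for Hlf, against 2.62%, 0.846%, 3.27% and 3.72% unthinned. The Lin-/CD11b+ control share was 1.92% in another random thinning and 1.81% as the expected value over all thinnings, nearer to the 2.33% expected in *Tet2* KO. No Mecom UMI was found in 427 lymphoid-like cells or 307 neutrophil-like cells at equal depth, which at a limit of 3 counts allows shares of up to 0.703% and 0.977%, and the GMP *Tet2* KO share lies below both limits. On the Mecom strand 5 predicted genes overlap the locus, so some of their UMIs and those of Mecom may not be told apart.

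Sox4 (chr13:28948919-28953713, minus strand) encodes a SoxC transcription factor expressed from stem cells into lymphoid and myeloid progenitors. Its level was 48.4 CPM (45.6 to 51.4) in GMP control and 40.4 CPM (38.5 to 42.3) in GMP *Tet2* KO. The Lin-/CD11b+ libraries had 63.2 CPM (59.99 to 66.6) in control and 71.3 CPM (68.5 to 74.2) in *Tet2* KO. The 4 intervals did not overlap, and the order was that of Hlf. Cells with a Sox4 UMI made up 19.5%, 17.0%, 22.3% and 23.4% at equal depth (46.2%, 37.3%, 34.4% and 35.4% unthinned), against 2.28% of neutrophil-like and 7.49% of lymphoid-like cells.

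Procr (chr2:155751117-155755471, plus strand), the endothelial protein C receptor, had the fewest UMIs of the 9 genes, 16, 43, 38 and 71 in the 4 libraries. It was at 0.699 CPM (0.400 to 1.14) in GMP control and 1.01 CPM (0.731 to 1.36) in GMP *Tet2* KO. The Lin-/CD11b+ values were 1.68 CPM (1.19 to 2.30) in control and 2.09 CPM (1.63 to 2.63) in *Tet2* KO. Within each sort the intervals of the genotypes overlapped, so no difference was detectable at this depth. Shares at equal depth were 0.477%, 0.588%, 1.195% and 1.11% (1.03%, 1.40%, 1.66% and 2.02% unthinned), where another random thinning gave 0.238% in GMP control, against 0 of 307 neutrophil-like cells, which allows up to 0.977%.

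Cd34 (chr1:194938819-194961279, plus strand) encodes a sialomucin whose protein was part of the GMP gate. It was at 104 CPM (99.9 to 108) in GMP control and 72.9 CPM (70.3 to 75.5) in GMP *Tet2* KO. The Lin-/CD11b+ control had 77.5 CPM (73.9 to 81.2) and the Lin-/CD11b+ *Tet2* KO 71.6 CPM (68.8 to 74.5). The GMP control library stood above the other 3, whose intervals overlapped. At equal depth 34.7% (32.0 to 37.4) of GMP control cells and 26.4% (24.8 to 28.1) of GMP *Tet2* KO cells held a Cd34 UMI, with 23.3% and 23.2% in the Lin-/CD11b+ control and *Tet2* KO libraries (66.7%, 54.9%, 36.2% and 35.7% unthinned), against 0.651% of neutrophil-like and 3.51% of lymphoid-like cells.

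Adgrg1 (chr8:94974751-95014217, plus strand), also called GPR56, and Adgrl4 (chr3:151437887-151545086, plus strand) encode adhesion G protein-coupled receptors. Adgrg1 was at 39.8 CPM (37.3 to 42.5) in GMP control, 24.8 CPM (23.3 to 26.3) in GMP *Tet2* KO, 38.4 CPM (35.9 to 41.0) in Lin-/CD11b+ control and 51.9 CPM (49.5 to 54.4) in Lin-/CD11b+ *Tet2* KO. Adgrl4 was at 25.1 CPM (23.1 to 27.2), 18.0 CPM (16.8 to 19.3), 22.6 CPM (20.7 to 24.7) and 30.4 CPM (28.6 to 32.3) in the same order. For both receptors the intervals of the control libraries overlapped between the sorts, while the *Tet2* KO levels lay below both controls in the GMP sort and above both in the Lin-/CD11b+ sort. Equal-depth shares were 15.4%, 11.0%, 13.7% and 17.6% for Adgrg1 (32.9%, 22.9%, 21.9% and 25.8% unthinned), and 1.63% in neutrophil-like cells. For Adgrl4 they were 12.2%, 8.90%, 8.11% and 11.5% (31.1%, 22.7%, 16.6% and 19.9% unthinned), and 1.30% in neutrophil-like cells.

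Angpt1 (chr15:42424723-42676977, minus strand) encodes a ligand of the receptor Tek, and Myct1 (chr10:5593775-5606904, plus strand) a membrane protein of endothelial and stem cells. Angpt1 was at 12.9 CPM (11.5 to 14.5) in GMP control, 5.90 CPM (5.19 to 6.67) in GMP *Tet2* KO, 13.1 CPM (11.7 to 14.7) in Lin-/CD11b+ control and 17.5 CPM (16.2 to 19.0) in Lin-/CD11b+ *Tet2* KO. Myct1 was at 12.9 CPM (11.5 to 14.4), 7.17 CPM (6.38 to 8.02), 11.99 CPM (10.6 to 13.5) and 14.0 CPM (12.7 to 15.3). The GMP *Tet2* KO library was lowest for both genes, the Lin-/CD11b+ *Tet2* KO library lay above both controls for Angpt1, and its interval overlapped those of both controls for Myct1. Equal-depth shares were 6.04%, 3.09%, 6.19% and 7.99% for Angpt1 (15.4%, 7.28%, 10.2% and 12.8% unthinned). They were 5.96%, 3.35%, 4.73% and 6.36% for Myct1 (12.96%, 8.46%, 8.47% and 10.1% unthinned), with 0.326% of neutrophil-like cells for each gene.

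**Figure D1:**
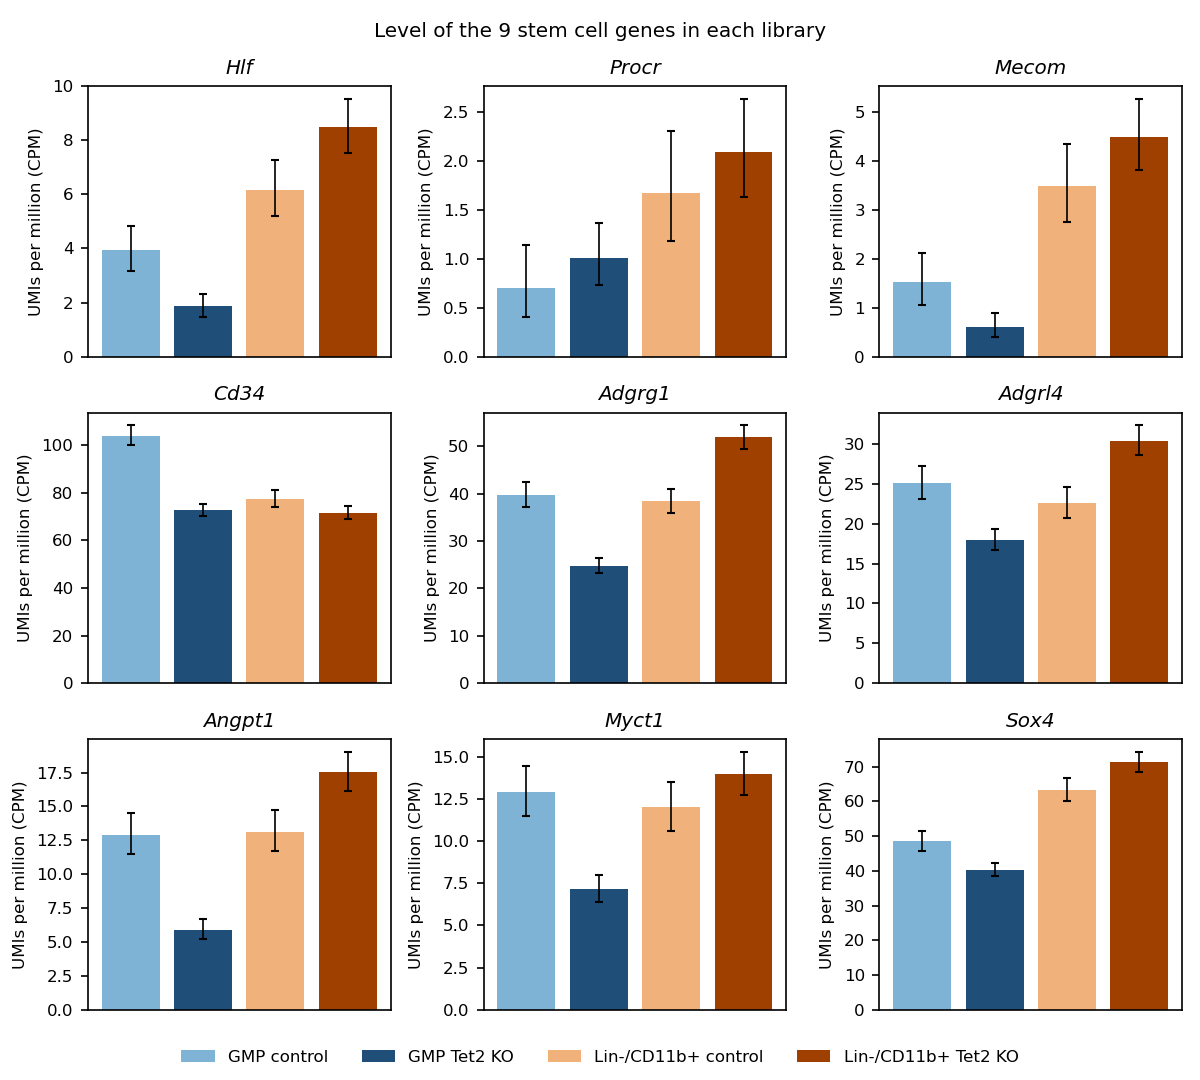
Level of each member in the 4 libraries in CPM, 1 panel per gene with its own axis from 0. Bars are single libraries and error bars 95% Poisson intervals of counting error. In the GMP sort 8 of 9 genes are lower in *Tet2* KO, with Procr the exception. In the Lin-/CD11b+ sort 8 of 9 are higher, with Cd34 the exception. Over all genes with at least 20 UMIs the median log2 ratio was -0.06 in the GMP sort and 0.09 in the Lin-/CD11b+ sort. The share of all genes lower or higher at any size within a sort was not counted.

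The comparison of genotypes asks how the loss of Tet2 is reflected in these genes. Their summed level differed in opposite directions in the sorts. In GMP-sorted cells the summed level was 173 CPM in *Tet2* KO and 249 CPM in control, a log2 ratio of -0.53 (-0.58 to -0.48). Mecom had a log2 ratio of -1.32 (-2.11 to -0.55), Angpt1 of -1.13 (-1.38 to -0.89), Hlf of -1.08 (-1.54 to -0.63), Myct1 of -0.85 (-1.08 to -0.61) and Adgrg1 of -0.68 (-0.81 to -0.55), and these genes were lower by at least 1.5-fold. That is 5 of 9 members, where 6.75% of all genes with at least 20 UMIs were lower by as much, and 0 of 9 members were higher by 1.5-fold, where 3.12% of genes were. Cd34 (-0.51), Adgrl4 (-0.48) and Sox4 (-0.26) were lower by less, with intervals below 0. Procr had a ratio above 0, 0.53 (-0.33 to 1.46), with an interval that spanned 0.

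In the Lin-/CD11b+ sort the summed level was 272 CPM in *Tet2* KO and 238 CPM in control, a log2 ratio of 0.19 (0.14 to 0.24). Of the 9 members, 0 were higher by 1.5-fold, where 8.38% of all genes were, and 0 were lower by as much, where 4.35% of all genes were. Hlf had a log2 ratio of 0.46 (0.16 to 0.76), Adgrg1 of 0.43 (0.32 to 0.55), Adgrl4 of 0.43 (0.27 to 0.58), Angpt1 of 0.42 (0.21 to 0.62) and Sox4 of 0.17 (0.08 to 0.27), all with intervals above 0. That of Myct1 was 0.22 (0.00 to 0.44), and the intervals of Mecom (0.37) and Procr (0.32) spanned 0. Cd34 was lower, at -0.11 (-0.20 to -0.02). Of the 9 members, 7 were lower in the GMP sort and higher in the Lin-/CD11b+ sort at any size, as were 36.6% of all genes. The median log2 ratio over the members was -0.68 in the GMP sort and 0.37 in the Lin-/CD11b+ sort, against -0.06 and 0.09 over all genes counted.

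For Hlf, Mecom, Angpt1, Adgrg1, Myct1, Adgrl4 and Sox4 the sorts lay further apart in the *Tet2* KO than in the control. For Cd34 and Procr they did not. The share of all genes with such a contrast was not counted. The log2 ratio of Lin-/CD11b+ to GMP-sorted cells was 2.19 (1.83 to 2.57) for Hlf and 2.88 (2.27 to 3.54) for Mecom in *Tet2* KO, against 0.65 (0.26 to 1.05) and 1.19 (0.60 to 1.81) in control. The *Tet2* KO ratios divide by GMP levels from 79 and 26 UMIs, so their size is uncertain beyond these intervals. For Hlf the GMP *Tet2* KO share of cells was no higher than the neutrophil-like share given above. For Mecom it lay below the limits given above, where no background UMI was found. Angpt1 had a log2 ratio of 1.57 (1.36 to 1.79) in *Tet2* KO and 0.02 (-0.21 to 0.26) in control. Adgrg1 had 1.07 in *Tet2* KO and -0.05 in control, Myct1 0.96 and -0.10, Adgrl4 0.76 and -0.15, and Sox4 0.82 and 0.38. Cd34 had -0.03 in *Tet2* KO and -0.43 in control, and Procr 1.05 and 1.26. The GMP gate leaves out Sca1+ cells in both genotypes, and its part in this contrast was not tested. Ly6a, which encodes Sca-1 and responds to interferon, was at 3.06 CPM and 4.30 CPM in the GMP control and *Tet2* KO libraries and at 67.4 CPM and 102 CPM in the Lin-/CD11b+ pair.

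The share of HSPC-like cells (hematopoietic stem and progenitor cells) differed between genotypes in the same direction as the summed level in each sort. This class was built by clustering the cells without the 9 genes, and 10 of its 10 markers, Meis1 and Gata2 among them, passed. It held 29 of 1258 GMP control cells, 6 of 2719 GMP *Tet2* KO cells, 158 of 1924 Lin-/CD11b+ control cells and 403 of 3068 Lin-/CD11b+ *Tet2* KO cells. Without these cells the log2 ratio of the sum was -0.06 in the Lin-/CD11b+ sort, where Hlf was at -0.10, Mecom at -0.65 and Sox4 at -0.08. In the GMP sort it was -0.44, with Hlf at -0.92, Mecom at -1.08, Angpt1 at -0.99 and Myct1 at -0.62, while Adgrg1, at -0.48, no longer reached 1.5-fold. In the summed libraries fewer cells of a type and less RNA per cell cannot be told apart. Markers of basophils, which also express Adgrg1 and Angpt1, differed in the GMP sort, summing to 834 CPM in GMP control and 467 CPM in GMP *Tet2* KO over 5 of 5 genes, and to 959.8 and 964 CPM in the Lin-/CD11b+ pair. The DC (dendritic cell) markers had a median log2 ratio of -0.95 in the GMP sort, with 6 of 6 counted genes below 0. Their sum differed less there, at 1336 CPM in control and 1221 CPM in *Tet2* KO. In the Lin-/CD11b+ sort their median was 0.63, and they summed to 2652 CPM in control and 4187 CPM in *Tet2* KO. Neutrophil markers of the Lin-/CD11b+ sort summed to 30665 CPM in control and 21753 CPM in *Tet2* KO, and lymphoid markers to 7388 and 4628 CPM. The part of these cell types in the result was not tested.

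Within the HSPC-like cells sorted as Lin-/CD11b+ the sum was 1213 CPM in *Tet2* KO and 1160.5 CPM in control, a log2 ratio of 0.06 (-0.01 to 0.14). Of the 9 members, 0 differed by 1.5-fold, while 10.4% of all genes with at least 20 UMIs in these cells were higher and 5.77% lower by as much. Sox4 came closest, at 229.5 CPM (214 to 246) in *Tet2* KO and 162 CPM (143 to 183) in control, a log2 ratio of 0.50 (0.30 to 0.71). Adgrg1 was higher too, at 279 CPM against 230.1 CPM, a log2 ratio of 0.28 (0.11 to 0.46). Cd34 and Myct1 were lower, with log2 ratios of -0.29 (-0.45 to -0.12) and -0.32 (-0.59 to -0.05). Hlf was at 65.5 CPM (57.4 to 74.4) in *Tet2* KO and 62.4 CPM (50.7 to 75.8) in control. Its log2 ratio was 0.07 (-0.27 to 0.42), and the intervals of Mecom (0.10), Adgrl4 (0.11), Angpt1 (0.00) and Procr (-0.44) spanned 0 as well. The ratio of the sum depends on the clustering. At resolution 1.2, or with the members kept in the clustering, the *Tet2* KO sum of HSPC-like cells stood further above control.

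**Figure D2:**
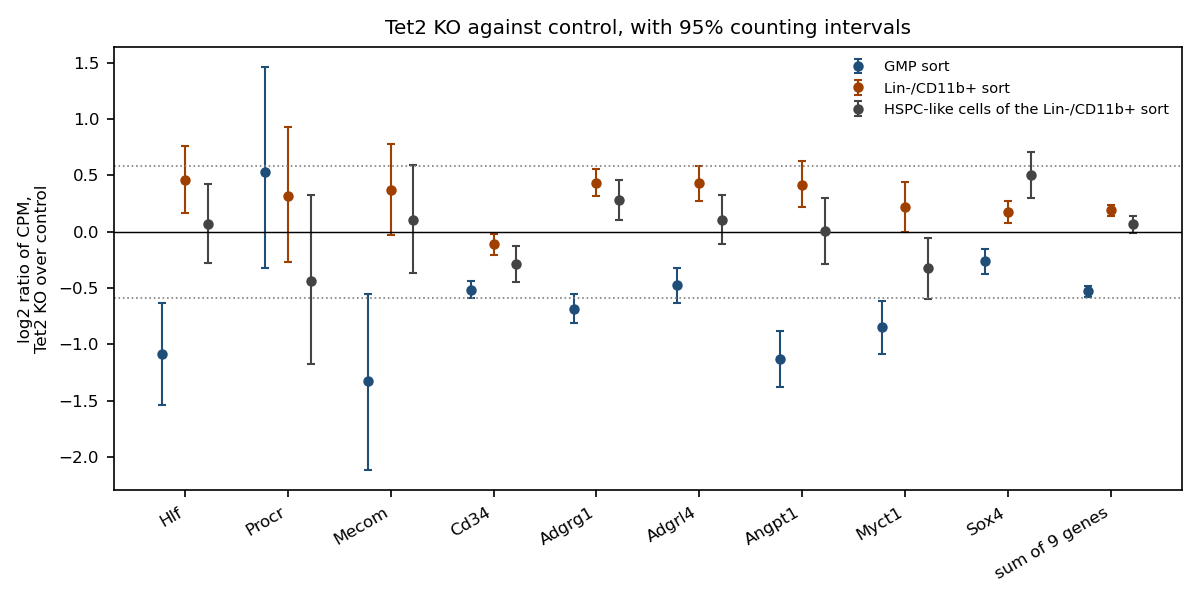
Log2 ratio of CPM, *Tet2* KO over control, for each member and their sum in the GMP sort, the Lin-/CD11b+ sort and HSPC-like cells within the latter. Points are single pairs of libraries, bars 95% counting intervals and dotted lines 1.5-fold; the GMP points of Hlf, Mecom, Adgrg1, Angpt1 and Myct1 lie below the lower line, and the HSPC-like points of all 9 genes lie between the lines.

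GMP-sorted cells outside the HSPC-like class also differed. Cluster 5, led by the cell cycle gene Ube2c and by Muc13, held 132 GMP control and 427 GMP *Tet2* KO cells. The members summed there to 284 CPM in *Tet2* KO and 482 CPM in control, a log2 ratio of -0.76 (-0.86 to -0.66). Angpt1 was at 8.65 CPM against 27.1 CPM, Myct1 at 15.1 CPM against 36.04 CPM, and Hlf at 2.84 CPM against 8.58 CPM from 23 and 25 UMIs. The interval of Sox4 spanned 0, with a log2 ratio of -0.21 (-0.45 to 0.03). In cluster 7, led by Serpina3g, the sum had a log2 ratio of -0.39 (-0.51 to -0.26) and Sox4 one of 0.11 (-0.19 to 0.41). In the Lin-/CD11b+ sort the sum in these clusters had log2 ratios of -0.21 (-0.35 to -0.08) and 0.15 (-0.05 to 0.35). Neither cluster met the marker rule for a class name.

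The members differed in where their UMIs lay. HSPC-like cells made up 8.21% of the cells in the Lin-/CD11b+ control library and 13.1% in the Lin-/CD11b+ *Tet2* KO library. For Hlf, Mecom, Procr and Myct1 they gave 71.4%, 68.4%, 68.4% and 65.8% of the UMIs in the control library. In the *Tet2* KO library they gave 81.3%, 85.0%, 60.6% and 67.4%. Cd34 (27.7% and 36.6%) and Sox4 (18.1% and 34.0%) were the most spread, and Adgrg1, Adgrl4 and Angpt1 lay between. In the GMP control library the HSPC-like cells, 2.31% of its cells, gave 16.7% of Hlf and 17.1% of Mecom UMIs. Cluster 5, with 10.5% of its cells, gave 27.8% and 40.0%. The largest share of Hlf UMIs in the GMP sort came from neutro-biased GMP-like cells, 36.7% in control and 40.5% in *Tet2* KO. This class was also large, with 27.7% and 29.2% of the cells of these libraries.

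By class, 24.7% (21.3 to 28.3) of the 596 HSPC-like cells held a Hlf UMI at equal depth, 13.6% (10.9 to 16.6) a Mecom UMI and 7.21% (5.27 to 9.60) a Procr UMI, at a median depth of 8715 UMIs. The next highest shares of Hlf were 2.40% (1.25 to 4.15) in cluster 7 and 1.79% (0.776 to 3.50) in cluster 8, which is neutro-biased GMP-like, and these intervals overlapped. Hlf was found in 1.48% (0.932 to 2.24) of neutro-biased and 0.182% (0.0221 to 0.656) of mono-biased GMP-like cells, whose median depths were 15191 and 17720.5 UMIs. Basophil-like cells (cluster 9) were high in Adgrg1 and Angpt1, with 94.7 to 121 CPM and 60.9 to 98.1 CPM over the 4 libraries. They held 106 to 146 CPM of Sox4 and 1.05 to 1.83 CPM of Hlf. Sox4 was at 135 CPM in control and 123 CPM in *Tet2* KO cells of cluster 3, in which Siglech, Cd7 and Dntt were among the leading genes. Procr was found in 4.42% (1.45 to 10.0) of 113 DC-like (dendritic cell-like) cells, from 10 UMIs, and this interval overlapped that of HSPC-like cells.

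**Figure D3:**
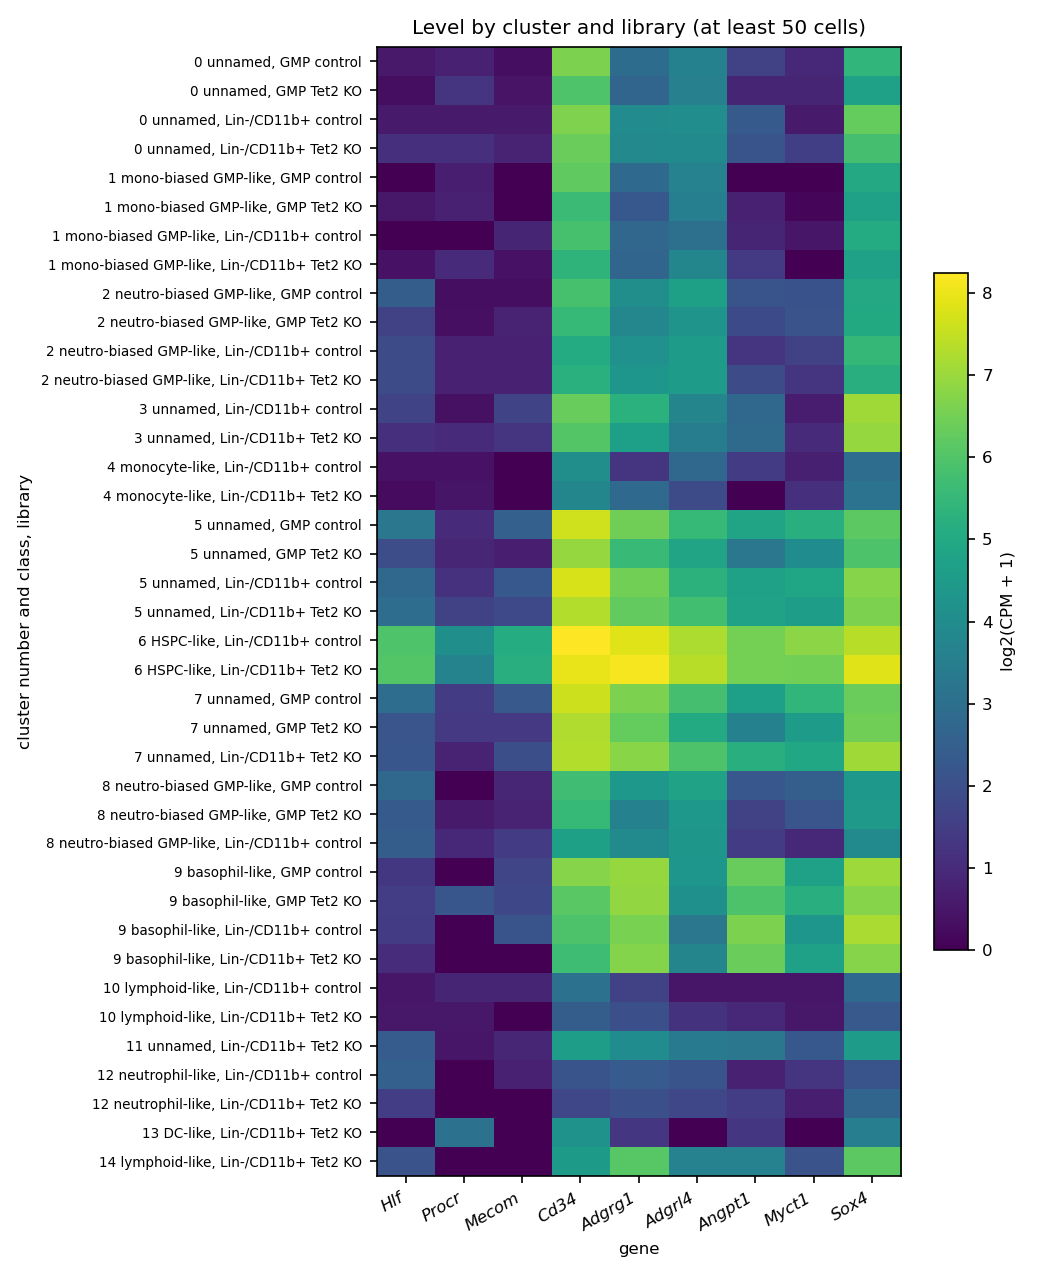
Level of each member by cluster and library as log2(CPM + 1), for the 39 combinations with at least 50 cells. Cluster 6 (HSPC-like) holds the highest level of 8 of 9 members, Angpt1 is highest in the Lin-/CD11b+ control cells of cluster 9 (basophil-like), and Cd34, Adgrg1, Adgrl4 and Sox4 reach into clusters 5 and 7. The share of all genes that are highest in cluster 6 was not counted.

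Pairs of members were found in the same cells more often than the product of their shares gives. Of 36 pairs, 25 in Lin-/CD11b+ control and 31 in Lin-/CD11b+ *Tet2* KO had at least 3 cells by that product. All of these were above it, with median ratios of observed to product of 3.05 and 3.24. The share of pairs of other genes above the product was not counted in any library, so these counts are not particular to the members. Angpt1 and Myct1 shared 31 control cells where the product gave 5.63, a ratio of 5.51 (3.75 to 7.79). Mecom and Myct1 shared 31 *Tet2* KO cells where it gave 4.51, a ratio of 6.87 (4.67 to 9.73). These were the highest ratios in the respective libraries among pairs with at least 3 cells by the product. Rarer pairs had higher ones, such as Hlf with Myct1 at 9.69 (6.08 to 14.6) from 22 control cells and Hlf with Mecom at 9.79 (6.57 to 14.0) from 29 *Tet2* KO cells. Hlf and Adgrg1 were together in 27 control cells against 6.59 by the product and in 97 *Tet2* KO cells against 22.5. The lowest ratio in both libraries was that of Procr and Sox4, at 1.75 (0.801 to 3.32) in control and 1.63 (0.871 to 2.79) in *Tet2* KO.

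GMP-sorted cells gave smaller ratios, with medians of 1.62 over 19 pairs in control and 1.66 over 17 pairs in *Tet2* KO. All of these pairs were above the product, but another random thinning left 1 of 18 *Tet2* KO pairs below it. Adgrg1 and Angpt1 had 3.41 (2.45 to 4.62) in control and 3.25 (2.19 to 4.63) in *Tet2* KO. Adgrg1 and Myct1 had 2.85 (1.97 to 3.99) and 3.30 (2.27 to 4.62). The intervals of the genotypes overlapped for both pairs. Basophil-like cells, 8.43% of GMP control and 5.55% of GMP *Tet2* KO cells, gave 35.5% and 39.8% of Angpt1 UMIs there. They gave 17.5% and 18.7% of Adgrg1 UMIs, and their part in the ratio of Adgrg1 and Angpt1 was not tested. Hlf and Cd34 shared 10 cells in each GMP library, with ratios of 1.37 (0.660 to 2.52) in control and 1.58 (0.757 to 2.90) in *Tet2* KO.

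Within HSPC-like cells alone the median ratio was 1.04 in Lin-/CD11b+ control over 35 pairs and 1.03 in Lin-/CD11b+ *Tet2* KO over 36 pairs. In the *Tet2* KO cells 2 pairs had intervals above 1, Hlf with Procr at 2.43 (1.37 to 3.97) from 15 cells and Hlf with Mecom at 1.62 (1.08 to 2.33) from 27 cells. In the control cells these pairs stood at 1.71 (0.695 to 3.45) from 7 cells and 2.19 (0.955 to 4.20) from 8 cells. Counted over all 9 genes and all cells, 4 or more members were found together in 6.03% (5.01 to 7.19) of Lin-/CD11b+ control and 8.90% (7.91 to 9.96) of Lin-/CD11b+ *Tet2* KO cells, where independent detection gives 0.376% and 0.789%. The GMP values were 3.74% (2.76 to 4.94) in control and 1.03% (0.685 to 1.48) in *Tet2* KO, where it gives 0.581% and 0.159%.

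**Figure D4:**
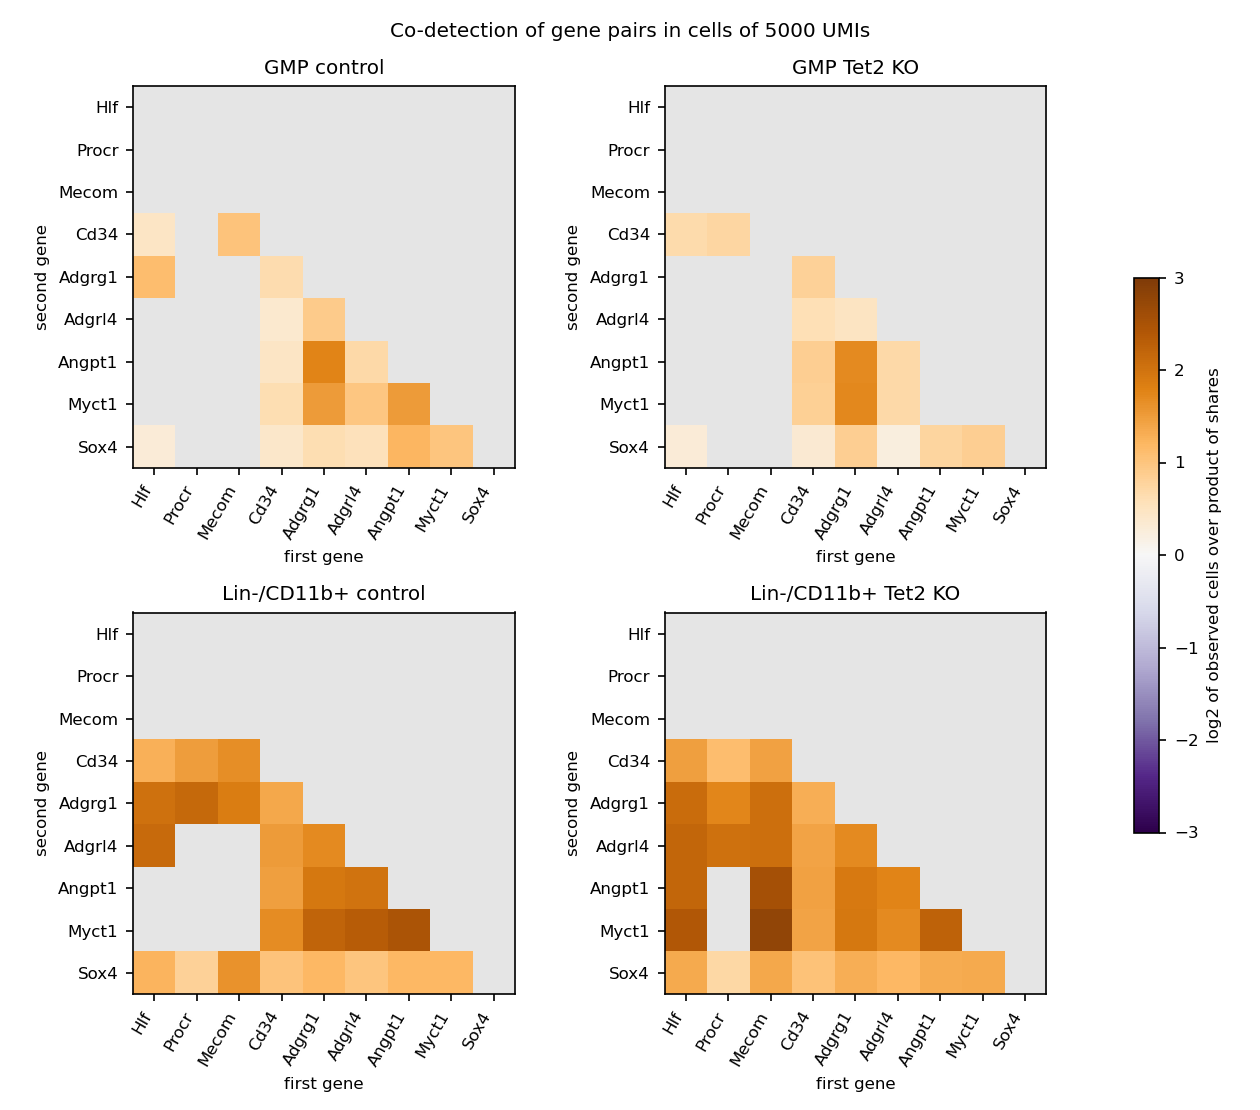
Co-detection of the 36 pairs of members in each library at 5000 UMIs per cell, as the log2 of observed cells over the cells given by the product of both shares. Grey marks pairs under 3 cells by the product and the mirrored part of the grid. Every coloured pair is above 0, and the median ratio is 1.62 and 1.66 in the GMP libraries and 3.05 and 3.24 in the Lin-/CD11b+ libraries. The share of pairs of other genes above 0 was not counted.

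In GMP-sorted cells Ly86 was found in 36.1% of control and 31.8% of *Tet2* KO cells at equal depth (50.1% and 49.9% unthinned), and Cebpe in 29.3% and 28.3% (49.3% and 49.5% unthinned). Ly86 and Cebpe met in 37 control cells where the product gave 133, a ratio of 0.279 (0.197 to 0.382), and in 109 *Tet2* KO cells where it gave 244, a ratio of 0.446 (0.368 to 0.536). Most members were found with Ly86 less often than the product gives. Myct1 shared 5 control cells with Ly86, a ratio of 0.185 (0.0600 to 0.430), and 2 *Tet2* KO cells, a ratio of 0.0692 (0.00838 to 0.2496). Angpt1 had ratios of 0.146 (0.0398 to 0.372) and 0.112 (0.0232 to 0.328), Adgrg1 of 0.343 (0.2203 to 0.508) and 0.484 (0.355 to 0.644), and Adgrl4 of 0.670 (0.474 to 0.918) and 0.676 (0.506 to 0.884). These intervals lay below 1 in both genotypes for Myct1, Angpt1, Adgrg1 and Adgrl4. Hlf and Ly86 met in 1 control cell against 7.58 by the product and in 3 *Tet2* KO cells against 7.63.

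Cd34 was found with Ly86 at ratios of 0.877 (0.743 to 1.03) in control and 0.824 (0.714 to 0.945) in *Tet2* KO, and Sox4 at 0.860 (0.681 to 1.07) and 0.676 (0.551 to 0.820). With Cebpe, Cd34 had 0.964 (0.808 to 1.14) and 0.891 (0.770 to 1.03), and Hlf had 1.79 (0.895 to 3.19) from 11 cells and 1.03 (0.415 to 2.12) from 7 cells. These Cebpe intervals spanned 1. Above 1 with an interval that left it out were Adgrl4 with Cebpe in control, at 1.34 (1.03 to 1.71), and Myct1 with Cebpe in *Tet2* KO, at 1.48 (1.05 to 2.02). For every member the control and *Tet2* KO intervals overlapped with either fate gene, and Mecom and Procr were too rare here to read, with at most 8 shared cells.

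**Figure D5:**
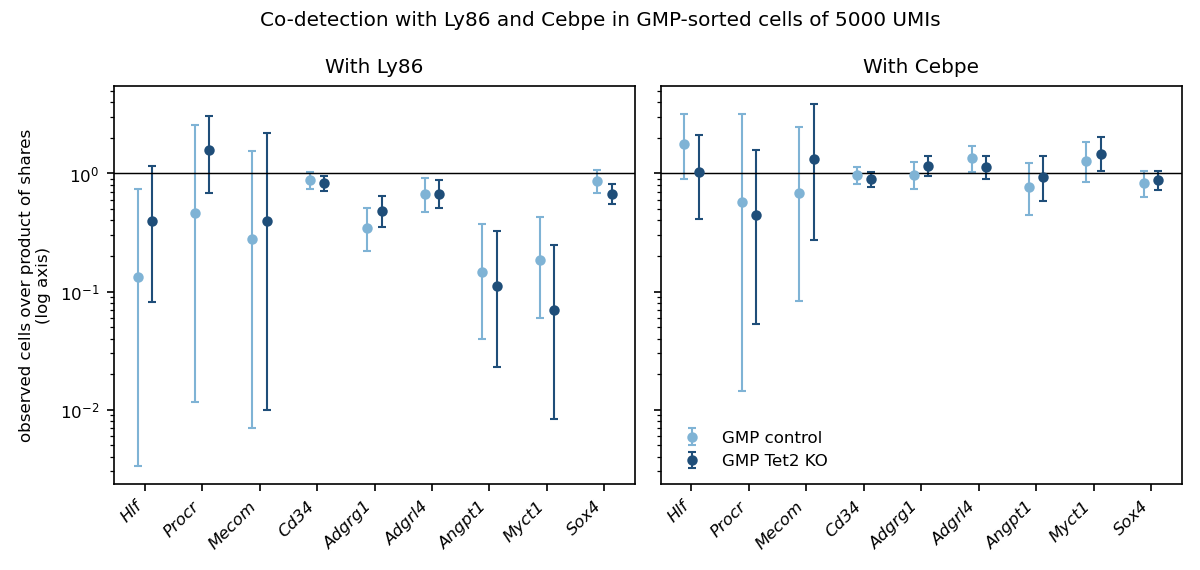
Ratio of observed cells to the product of shares for each member with Ly86 and with Cebpe in GMP-sorted cells of 5000 UMIs, on a log axis, control and *Tet2* KO apart. Points are single libraries and bars 95% binomial intervals; Adgrg1, Adgrl4, Angpt1 and Myct1 lie below 1 with Ly86 in both libraries, while with Cebpe the intervals span 1 except for Adgrl4 in control and Myct1 in *Tet2* KO.

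Family members and partners of these genes were described as a list of 27, of which 25 were in the counts. In the GMP sort 6 of 20 with at least 20 UMIs were lower by 1.5-fold in *Tet2* KO and 0 higher, where 6.75% and 3.12% of all genes were, with a median log2 ratio of -0.30. In the Lin-/CD11b+ sort 2 of 22 were lower and 6 higher, where 4.35% and 8.38% of all genes were, with a median of 0.36. Gfi1b, a transcriptional repressor of erythroid and megakaryocyte development, was at 1.53 CPM in GMP control and 0.611 CPM in GMP *Tet2* KO, a log2 ratio of -1.32 (-2.11 to -0.55). Tek, the receptor of Angpt1, was at 0.2204 CPM in Lin-/CD11b+ control and 0.764 CPM in Lin-/CD11b+ *Tet2* KO, a log2 ratio of 1.79 (0.39 to 3.53) from 5 and 26 UMIs. Its relative Tie1 was at 2.07 CPM and 3.70 CPM there. The PAR bZIP relatives of Hlf stayed within 1.5-fold, with log2 ratios of -0.28 (-0.74 to 0.18) and -0.05 (-0.45 to 0.36) for Tef and -0.08 (-0.47 to 0.33) and -0.07 (-0.46 to 0.33) for Dbp in the GMP and Lin-/CD11b+ sorts. F2r, the thrombin receptor cleaved by protein C bound to Procr, had -1.12 (-2.11 to -0.14) and 0.79 (0.27 to 1.32).

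Other genes of stem and early progenitor cells, 32 in all, were counted in the same way. In the GMP sort 6 of 24 were lower by 1.5-fold and 2 higher in *Tet2* KO, against 6.75% and 3.12% of all genes, with a median log2 ratio of -0.31. Their summed level lay the other way, at 1611 CPM in control and 1671 CPM in *Tet2* KO. In the Lin-/CD11b+ sort 1 of 30 was lower and 11 higher, against 4.35% and 8.38% of all genes, with a median of 0.34 and sums of 1959 and 2746 CPM. Meis1, a homeobox partner of the Hox factors, had log2 ratios of -0.79 (-1.05 to -0.53) in the GMP and 0.53 (0.33 to 0.73) in the Lin-/CD11b+ sort. Hoxa9, a homeobox factor of progenitors, was lower in both, at -1.53 (-1.76 to -1.31) and -0.68 (-0.90 to -0.46). Gata2 had -1.17 (-1.38 to -0.97) and -0.01 (-0.24 to 0.21), and the second interval spanned 0. Markers of endothelial cells, in which Procr, Cd34, Adgrl4 and Myct1 are also known, summed to 34.0 and 25.0 CPM in GMP control and *Tet2* KO and to 45.4 and 43.6 CPM in the Lin-/CD11b+ pair, with 0 to 2 of 7 genes at 0 in a library, and their part in these levels was not tested.

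Likeness of pattern was taken over the 39 combinations of cluster and library, as Pearson's r of log2(CPM + 10) among 8618 genes with at least 500 UMIs. It is a description, since the points share libraries and mice. Among the 5 genes most like Hlf were Gm19590 (0.91), Itih5 (0.89), Osbpl1a (0.86) and Car2 (0.83). Among the 5 most like Procr were Fchsd2 (0.79), Hlf (0.79), Gm19590 (0.78) and Osbpl1a (0.73). Cd34 lay nearest to Klk8 (0.92), Crtap (0.90), Nme4 (0.90), Gabarapl1 (0.90) and Sirt3 (0.90). For Sox4 the nearest were Ripor1 (0.90), Ttc3 (0.89), Smg6 (0.89), Klk8 (0.88) and Tespa1 (0.88). These lists depend on the settings. With 1 CPM added in place of 10, 3 of them changed and 1 held. With combinations of at least 30 cells, 1 changed and 3 held. Among the members r was highest for Hlf with Mecom (0.95) and lowest for Procr with Sox4 (0.34).

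Promoter sequences were taken from RefSeq (GRCm38.p6, the assembly called mm10), which matched 8 of 9 members; Angpt1 was not matched. The 250 bases before the RefSeq start are shown for Hlf, Myct1 and Cd34, all lower in GMP-sorted *Tet2* KO cells, with motif matches in capitals. The windows are chr11:90390918-90391167 (minus strand) for Hlf, chr10:5593478-5593727 (plus strand) for Myct1 and chr1:194938571-194938820 (plus strand) for Cd34.
Hlf: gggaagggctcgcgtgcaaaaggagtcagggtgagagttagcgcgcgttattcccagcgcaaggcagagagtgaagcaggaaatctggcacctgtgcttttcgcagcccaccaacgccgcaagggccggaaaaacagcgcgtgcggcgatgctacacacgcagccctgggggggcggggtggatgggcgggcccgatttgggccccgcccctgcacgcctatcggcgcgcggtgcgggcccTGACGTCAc
Myct1: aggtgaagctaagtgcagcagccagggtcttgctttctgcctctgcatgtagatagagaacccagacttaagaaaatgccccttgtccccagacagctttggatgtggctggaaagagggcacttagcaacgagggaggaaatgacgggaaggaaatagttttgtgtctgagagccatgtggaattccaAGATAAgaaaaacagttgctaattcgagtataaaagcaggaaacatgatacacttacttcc
Cd34: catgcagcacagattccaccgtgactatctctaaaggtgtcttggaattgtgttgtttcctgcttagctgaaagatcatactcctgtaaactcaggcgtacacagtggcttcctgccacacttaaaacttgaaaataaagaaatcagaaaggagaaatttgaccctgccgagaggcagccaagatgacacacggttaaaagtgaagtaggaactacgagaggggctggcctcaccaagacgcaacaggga
The motifs were searched on both strands and do not contain one another. The motif of the GATA factors was spelled as AGATAA and, in its other form, as TGATAA. For the RUNX factors the forms searched were TGTGGT and, in a further form, TGCGGT. For the ETS factors they were ACCGGAAG and the shorter GAGGAAG. The E-box was searched as CAGCTG alone, and the CRE (cyclic AMP response element) as TGACGTCA and the related TGACGTAA. Hlf held 1 CRE match, at the end of the window nearest the start, and 1.98% of 32851 promoters hold one. Myct1 held 1 GATA match, as do 16.6% of promoters, and Cd34 held none of the 5 motifs. Over the 10 promoters of the matched members, 2 held a GATA match (Mecom and Myct1), 2 an ETS match (Adgrl4 and Sox4), 2 an E-box (Procr and Sox4) and 0 a RUNX match, where 12.2%, 13% and 18.6% of all promoters held an ETS, E-box and RUNX match. G and C made up 67.2% of the Hlf window, 45.6% of that of Myct1 and 46.4% of that of Cd34, against a median of 52.4% over all promoters.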

How the data were processed

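Single cells of 4 libraries from 2 mice, 1 of each genotype, were sequenced on a droplet 3′ platform, and the submitters' processing notes name Cell Ranger 3.1.0, Seurat and the build mm10. The kit version differs between the study's methods and the series description. The authors deposited 1 table of raw UMI counts (18695 genes) and a cell table from which library, mouse and genotype were taken; the stated filter asked for 200 genes and 5000 UMIs per cell and a mitochondrial share below 5%, although 44 to 180 cells per library reach 5%. Depth was 22681380 to 42561110 UMIs per library.

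From these counts CPM were computed per library and class, with exact Poisson intervals, exact binomial intervals for shares and exact conditional binomial intervals for ratios, all at 95%; a share of 0 is given with the limit that 3 counts allow. These cover counting error only. Cells were thinned to 5000 UMIs. Clustering (scanpy 1.11.5, leidenalg 0.10.2, resolution 0.8, 30 principal components) left out the 9 genes. A class was named where at least 3 of its markers passed 1.5-fold with 5% of cells and markers of another class did not outnumber them in its 10 leading genes; clusters led by T cell receptor complex genes were named only as lymphoid. A monocytic or neutrophilic progenitor cluster was called GMP-like where at least 10% of its cells were GMP-sorted. This rule was chosen after cluster genes were seen. Scrublet called 31 cells (0.346%), too few for its scores to be relied on, so doublets were kept. The part of doublets in the co-detection ratios could not be checked with these scores. Ratios and intervals were tested on simulated data. The members and lists were chosen with earlier results of these data known. Named relatives, partners and stem cell genes come from those lists, and likeness names genes among the 5 of highest r; some genes that these rules would name are not reported here. The alternatives were TMM scaling (edgeR 4.0.16), the mean over cells, other minimum UMI counts, a second thinning, no thinning, cells left out, and other clusterings.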

Additional observations from a re-analysis of the deposited data

Results flagged for a closer look

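The log2 ratio of *Tet2* KO to control was below 0 in the GMP sort and above 0 in the Lin-/CD11b+ sort for 6 members and for the sum, with counting intervals on either side of 0. In these directions at any size lay 36.6% of all genes with at least 20 UMIs in each comparison. The share of all genes that met the interval rule was not counted. The Lin-/CD11b+ ratio exceeded the GMP ratio by 1.55 for Angpt1, 1.54 for Hlf, 1.12 for Adgrg1, 1.07 for Myct1, 0.90 for Adgrl4, 0.44 for Sox4 and 0.72 for the sum of the 9 genes. With 1 library per sort and genotype the difference between the sorts was not tested.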

How the results depend on the processing

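No paired analysis was possible because each group holds 1 library, which leaves no spread to test against. Both sorts of a genotype came from the same mouse, but no mouse is in both genotypes, and no replicate could be left out. The summed log2 ratio moved in the GMP sort to -0.47 with TMM factors, -0.15 in HSPC-like cells alone (29 and 6 cells) and -0.44 without them (an alternative chosen after seeing the data). In the Lin-/CD11b+ sort it moved to 0.099 with TMM factors, 0.29 as a mean over cells, 0.064 in HSPC-like cells alone and -0.064 without them. Hlf in the GMP sort reversed to 0.85 in HSPC-like cells alone. The count of members lower by 1.5-fold in the GMP sort was 0 in HSPC-like cells alone. Members without a UMI in a library gave no ratio and were left out of the counts. In HSPC-like cells of the GMP sort these were Mecom, with 6 UMIs in control and 0 in *Tet2* KO, and Procr, with 3 and 0. The count higher was 1 with TMM factors, as a mean over cells, without the top cell of each gene, in HSPC-like cells alone and without them. In the Lin-/CD11b+ sort 1 was lower and 1 higher without HSPC-like cells, and 2 were higher as a mean over cells. The share of all genes past 1.5-fold (lower, higher) was 17.0% and 12.8% with no minimum of UMIs and 3.34% and 1.38% with at least 100 in the GMP sort, 14.4% and 18.9%, then 1.67% and 4.91% in the Lin-/CD11b+ sort, and 13.5% and 23.6%, then 1.78% and 3.09% in its HSPC-like cells. Median co-detection ratios in HSPC-like cells alone were 0.967 in GMP control, 1.04 in Lin-/CD11b+ control and 1.03 in Lin-/CD11b+ *Tet2* KO; GMP *Tet2* KO gave no value. The summed CPM in HSPC-like cells of GMP control, Lin-/CD11b+ control and Lin-/CD11b+ *Tet2* KO was 854, 782 and 905 at resolution 1.2, and 1016, 798 and 937 with the members kept in the clustering. Both set the Lin-/CD11b+ *Tet2* KO sum further above its control than the main clustering did, so the near equality there depends on the clustering. The causes were not tested. Leaving out cells at 5% or more mitochondrial UMIs moved none of the summed ratios. Leaving out the highest Scrublet scores moved none either, but as these scores were not relied on, this says nothing about doublets. Low counts limit Procr and Mecom.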
